A study of Mus musculus with 6 samples.

Results

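The genes described are the 9 that encode inhibitors of cyclin-dependent kinases (CDKs) and the D-type cyclins that switch those kinases on: Cdkn1a and Cdkn1b of the CIP/KIP family, Cdkn2a, Cdkn2b, Cdkn2c and Cdkn2d of the INK4 family, and Ccnd1, Ccnd2 and Ccnd3. They were taken by gene symbol from a table of 24879 gene lines, each symbol matched 1 line, and all 9 were among the 11068 genes tested, those averaging 1 FPKM or more (fragments per kilobase of transcript, scaled to the mapped fragments of the library). The table holds mRNA values of 661W, an immortalised mouse line kept in DMEM with serum, in a Light group and a Dark group of 3 libraries each. Light cultures received 2000 ± 100 lux from a cold white fluorescent tube over 24 h, and Dark cultures spent 24 h unlit. The labels call the cells photosensitive and name no other treatment, and nothing in them says that the libraries came from separate cultures, so the p-values reflect spread among these 6 libraries that could be technical. As background, 661W was derived from a mouse retinal tumour driven by the large T antigen of simian virus, a protein that binds the retinoblastoma protein and p53, and Light and Dark cells alike carry it.

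Cells decide in the G1 phase whether to copy their DNA. D-type cyclins bind CDK4 and CDK6, and the active pairs phosphorylate the retinoblastoma protein, which then releases E2F transcription factors that turn on S-phase genes. INK4 proteins bind CDK4 and CDK6 and keep the cyclins off, while the CIP/KIP proteins p21 (Cdkn1a) and p27 (Cdkn1b) bind complete cyclin-CDK pairs and block CDK2 above all. Cdkn1a is the best known target of p53 in this group, and it also answers other stress signals.

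The deposited FPKM summed to 459198 to 471471 in the Light libraries and to 411186 to 434372 in the Dark libraries. Sequencing depth is unknown, because FPKM keep no read totals, and counting intervals are therefore left out. Of 14 cone photoreceptor markers 0 reached a mean of 1 FPKM, 7 (Opn1mw, Arr3, Cngb3, Pde6c, Otx2, Rcvrn and Rbp3) were listed at 0 in every library, and the list summed to 1.37 to 1.71 FPKM in Light and 1.35 to 1.83 FPKM in Dark libraries. Of other cell types, 4 of 6 mesenchymal markers reached 1 FPKM, summing to 353 to 382 FPKM in Light and 725 to 842 FPKM in Dark, as did 3 of 6 Müller glia markers (1090 to 1108 FPKM in Light, 913 to 1077 FPKM in Dark, nearly all of it Vim), 1 of 6 retinal pigment epithelium markers (1.54 to 2.12 FPKM in Light, 1.67 to 2.60 FPKM in Dark) and 1 of 5 leukocyte markers (7.96 to 9.94 FPKM in Light, 3.95 to 4.96 FPKM in Dark). Of the 3 Müller glia markers tested, 0 were called higher and 2 lower: Glul averaged 21.8 ± 1.28 FPKM in Light and 33.2 ± 3.06 FPKM in Dark, and Slc1a3 averaged 13.7 ± 2.10 FPKM in Light and 22.2 ± 1.35 FPKM in Dark (SD, n = 3 each), named after their values were seen. All 4 mesenchymal markers tested were called lower, with a median log2 change of -1.19. The 1 leukocyte marker tested, Cd68, was called higher (1.02), and the 1 retinal pigment epithelium marker tested was not called. Over all genes 19.2% were called higher and 16.4% lower. Rod (0 of 8) and endothelial (0 of 4) markers stayed under that level, with sums of at most 0.295 and 0.453 FPKM in Light and 0.257 and 0.337 FPKM in Dark. The part of these shifts in the results below was not tested. On the first principal component Dark 1 (36.51) and Light 2 (-31.72) lay at the ends, and Dark 2 (6.27) lay nearest to the Light libraries. Shorter and GC-richer transcripts were higher in Light: the median log2 change was -0.34 in the lowest quintile of GC content and 0.16 in the highest, and 0.22 in the shortest quintile of transcripts and -0.29 in the longest. Every change below is the difference of Light minus Dark means of log2(FPKM + 1), a scale that shrinks the changes of low genes. The test was limma's, Benjamini-Hochberg adjusted over the 11068 genes, and a gene with an adjusted p under 0.05 is called. In bulk RNA fewer cells that express a gene and less of its RNA per cell cannot be told apart.

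Cdkn1a rose and stood far from the other 8 genes. It had 13.2, 19.6 and 14.7 FPKM in the Light libraries, against 2.25, 3.06 and 2.11 FPKM in the Dark libraries. The groups were well apart, the lowest Light value lying far above the highest Dark value. Its means were 15.8 ± 3.35 FPKM in Light and 2.47 ± 0.510 FPKM in Dark (SD, n = 3 each), a fold of 6.40, and its log2 change of 2.27 ± 0.16 (SE; adjusted p = 0.000327) was the ninth highest of all genes tested. Among the members 2 of 9 were called, 1 higher and 1 lower in Light, beside 35.6% of all genes called (19.2% higher and 16.4% lower). With libraries scaled to the same FPKM total the median change of all genes moved to -0.13, beside -0.01 as tested, and 1212 genes were called higher and 2902 lower, beside 2128 higher and 1810 lower. A log2 change of at least 1 with a call was reached by 1 of 9, beside 2.24% of all genes. The call of Cdkn1a was kept in all 15 alternative analyses, with changes of 2.06 to 2.63, and without Dark 1 and Light 2 the change was 2.07.

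**Figure D1:**
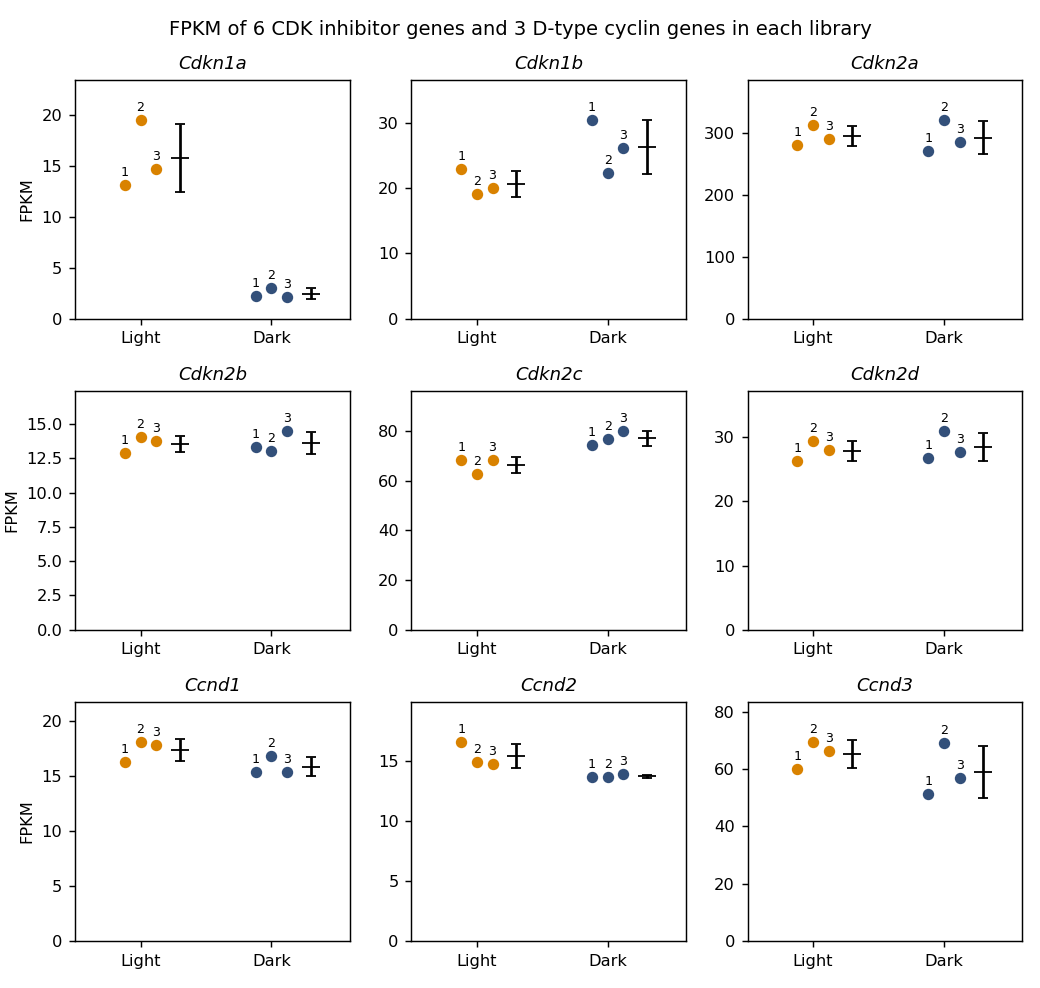
FPKM (vertical axes, each from 0) of the 9 genes in the 3 Light and 3 Dark libraries; numbers beside points are library numbers, and black bars give mean and SD. Cdkn1a is the gene whose groups lie far apart, at 13.2 to 19.6 FPKM in Light and 2.11 to 3.06 FPKM in Dark, while the Light and Dark values of Cdkn1b, Cdkn2a, Cdkn2b, Cdkn2d, Ccnd1 and Ccnd3 overlap.

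In the mm10 build Cdkn1a spans chromosome 17 from 29090976 to 29100727 on the plus strand, and RefSeq (GRCm38.p6) gives windows around 2 start sites, from 250 bases before to 50 bases after each. They are shown because Cdkn1a had the largest change of the 9 genes. The upstream window is chr17:29090729-29091028, with capitals on 2 copies of CATG with 6 bases between them, the paired core of a p53 response element. The downstream window is chr17:29093519-29093818, with capitals on matches to the GC box GGGCGG and to the TATA box TATAA in the direction of transcription. The last line gives the 20 bases at chr17:29090928-29090947 that hold the paired core, with only the fixed letters in capitals.
Cdkn1a upstream start: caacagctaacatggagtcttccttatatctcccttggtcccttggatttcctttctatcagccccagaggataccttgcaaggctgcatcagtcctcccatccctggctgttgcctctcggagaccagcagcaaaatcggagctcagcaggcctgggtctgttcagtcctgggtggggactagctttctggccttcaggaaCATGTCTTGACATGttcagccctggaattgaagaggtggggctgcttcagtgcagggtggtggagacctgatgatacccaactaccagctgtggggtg
Cdkn1a downstream start: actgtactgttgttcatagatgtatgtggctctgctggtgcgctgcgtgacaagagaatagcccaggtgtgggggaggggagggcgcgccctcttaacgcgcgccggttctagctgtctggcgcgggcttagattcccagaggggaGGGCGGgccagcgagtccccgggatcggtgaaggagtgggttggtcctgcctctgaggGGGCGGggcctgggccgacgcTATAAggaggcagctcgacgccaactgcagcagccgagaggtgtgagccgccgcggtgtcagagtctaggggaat
Cdkn1a paired core: gaaCATGtcttgaCATGttc

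Those 20 bases begin 51 bases before the upstream start and 2841 bases before the downstream start. The paired core was found in 0.712% of 32851 promoter windows of the same length, searched on both strands, and in 1 of the 11 windows that RefSeq gives for 7 of the members (all but Ccnd1 and Ccnd2). That window is the upstream Cdkn1a window, and the core was chosen after its sequence was seen. The match was thus known beforehand, and the share over all windows cannot tell how unusual it is. Among the other members, both Cdkn2a windows held the E2F site letters TTTNNCGC (5.17% of all windows), and the Cdkn2b window held the cAMP response element 46 bases before its start. Both GC boxes (at 104 and 46 bases before the start) and the TATA box (at 25 bases before it) lay in the downstream window, and the upstream window held TATAA on its opposite strand, 227 bases before its start. GC boxes occurred in 35.7% of all windows and TATA boxes in 24.9%. GC boxes also lay in windows of Cdkn1b, Cdkn2a, Cdkn2b, Cdkn2c, Cdkn2d and Ccnd3. The antioxidant response element letters TGACNNNGC matched the opposite strand of the downstream window 28 bases after the start, and 12.4% of all windows held them. Windows of Cdkn1b, Cdkn2a and Ccnd3 held these letters as well. Neither Cdkn1a window held the ATF4/CHOP element TGATGNAA, the cAMP response element TGACGTCA or the AP-1 site TGANTCA, which 3.97%, 1.79% and 7.81% of windows hold. A match describes letters and not binding, and its part in the change was not tested. The table gives 1 value per gene, so use of the 2 starts cannot be told apart. A short opposite-strand gene model, AC167363.2, shares 273 exonic bases with Cdkn1a, and no FPKM was found for its identifier.

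Cdkn1b, which encodes p27, the inhibitor typical of resting cells, was lower on average in Light but was not called. It lies at chr6:134920401-134925513 (plus strand). It had 22.9, 19.1 and 20.001 FPKM in Light, against 30.5, 22.3 and 26.1 FPKM in Dark. Light 1 lay above Dark 2, so the groups overlapped by that 1 pair. The log2 change was -0.33 ± 0.12 (SE; adjusted p = 0.069). Cdkn1b has a transcript of 43.1% GC, in the lowest quintile of genes, where the median change was -0.34, and after the length and GC trends of each library were removed its change was -0.04 (adjusted p = 0.535). It was called without Dark 2 (-0.43, adjusted p = 0.0145) and with all libraries scaled to the same FPKM total (-0.46, adjusted p = 0.0413).

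The make-up of the CIP/KIP pair differed between groups. Cdkn1a made up 36.6%, 50.6% and 42.4% of the summed Cdkn1a and Cdkn1b FPKM in the Light libraries, against 6.87%, 12.1% and 7.49% in the Dark libraries. This share does not depend on how libraries are scaled to each other, and its groups did not overlap. The pair summed to 36.5 ± 2.03 FPKM in Light and 28.8 ± 3.73 FPKM in Dark (SD, n = 3 each), without overlap in the deposited values. The lowest Light sum was 34.7 FPKM and the highest Dark sum 32.7 FPKM. Unlike the share, this sum depends on scaling, and the Dark libraries had the lower FPKM totals. At the same FPKM total the groups overlapped. The Dark 1 sum was 32.7 of a library total of 411186 FPKM. That was a larger part than in Light 1 (36.1 of 459198 FPKM) or Light 3 (34.7 of 464325 FPKM). Cdkn1c, the imprinted gene of p57 and the remaining CIP/KIP gene, was too low to be tested, at 1.197, 0.973 and 0.799 FPKM in Light and 0.437, 0.632 and 0.464 FPKM in Dark, where the lowest Light value lay above the highest Dark value.

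**Figure D2:**
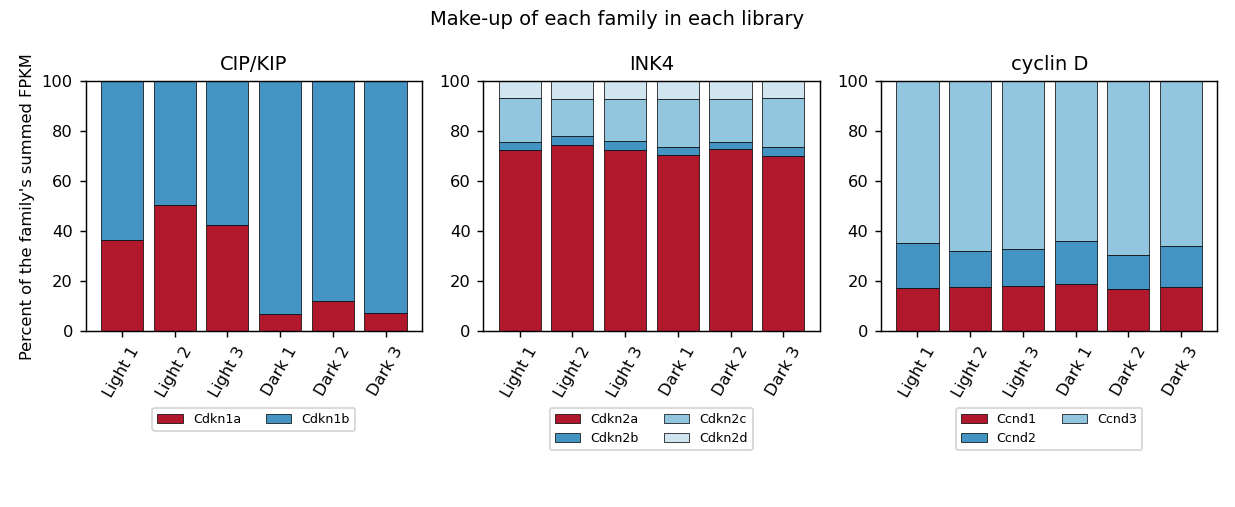
Stacked bars give each gene's percent of its family's summed FPKM in the Light (left) and Dark (right) libraries. Cdkn1a takes 36.6% to 50.6% of the CIP/KIP bar in Light and 6.87% to 12.1% in Dark, while Cdkn2a (70.0% to 74.6%) and Ccnd3 (63.9% to 69.4%) lead their families in all 6 libraries.

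Among the INK4 genes Cdkn2a was by far the most abundant, and Cdkn2c was the gene that was called. Cdkn2a, whose locus encodes p16 and, in another reading frame, the p53 activator ARF, had 280, 312 and 291 FPKM in Light, against 270, 322 and 286 FPKM in Dark. These ranges overlap almost wholly, and the log2 change was 0.01 ± 0.09 (SE; adjusted p = 0.92). The gene stood at percentile 98.0 of tested genes in Light and 98.3 in Dark. In the mm10 build it spans chromosome 4 from 89274471 to 89294653, and the FPKM does not separate its 2 products. Its neighbour Cdkn2b (p15, from 89306299 to 89311039) had 12.9, 14.0 and 13.8 FPKM in Light, against 13.3, 13.008 and 14.5 FPKM in Dark, which overlap (-0.00 ± 0.07, adjusted p = 0.977).

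Cdkn2c, the gene of p18 (chr4:109660876-109667189, minus strand), fell slightly. It had 68.2, 62.8 and 68.4 FPKM in Light, against 74.1, 76.6 and 80.1 FPKM in Dark. All Light values lay below all Dark values. Groups that did not overlap, in either direction, were found for 3 of the 9 members (Cdkn1a and Ccnd2 with Light above Dark, Cdkn2c with Light below), beside 52.6% of all genes. Its log2 change was -0.21 ± 0.07 (SE; adjusted p = 0.0446), near the middle of the spread of all genes at percentile 30.1. The change was negative in all 15 alternatives, and 7 of the 15 called it. The call was lost without Light 1 (adjusted p = 0.0708), Light 2 (0.159), Light 3 (0.111), Dark 1 (0.0533) or Dark 3 (0.155), without Dark 1 and Light 2 (0.159), with no filter (0.0695) and with median centring (0.165). Cdkn2d, the gene of p19 (chr9:21288410-21291407, minus strand), had 26.2, 29.4 and 28.002 FPKM in Light, against 26.8, 31.0 and 27.6 FPKM in Dark, which overlap, for a log2 change of -0.03 ± 0.08 (adjusted p = 0.782).

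The INK4 transcripts are GC-rich, from 55.8% to 60.2%, in the highest quintile of genes, where the median change was 0.16. After removal of the length and GC trends, all 4 were called lower in Light: Cdkn2a by -0.29 (adjusted p = 0.00321), Cdkn2b by -0.27 (0.0308), Cdkn2c by -0.40 (0.00646) and Cdkn2d by -0.29 (0.00217). Cdkn2a was also called lower with quantile normalization (-0.23, adjusted p = 0.0136). With libraries scaled to the same FPKM total the 4 changes were -0.13, -0.14, -0.35 and -0.17, and Cdkn2c was called. The direction of Cdkn2a, Cdkn2b and Cdkn2d depends on scaling. Without any scaling between libraries, the summed INK4 FPKM over the summed FPKM of their targets Cdk4 and Cdk6 was 1.38, 1.38 and 1.33 in Light, against 1.67, 1.65 and 1.69 in Dark, and the groups did not overlap. The summed FPKM of the 3 D cyclins over the same Cdk4 and Cdk6 sum was lower in Light too. It was 0.328 to 0.338 in Light and 0.349 to 0.371 in Dark, without overlap. Both ratios are descriptions, and Cdk4, described below, makes up most of the Cdk4 and Cdk6 sum.

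The D-type cyclin genes, Ccnd1 (chr7:144929931-144939925, minus strand), Ccnd2 (chr6:127125162-127152193, minus strand) and Ccnd3 (chr17:47505051-47599691, plus strand), were slightly higher on average in Light and limma called 0 of 3, and 0 of 3 had an unadjusted p under 0.05. Ccnd1, the cyclin most tied to growth factor signals, had 16.2, 18.1 and 17.7 FPKM in Light, against 15.3, 16.8 and 15.3 FPKM in Dark. Light 1 lay below Dark 2, and the log2 change was 0.13 ± 0.07 (SE; adjusted p = 0.199). Ccnd2 had 16.6, 14.9 and 14.7 FPKM in Light, against 13.7, 13.6 and 13.9 FPKM in Dark. Its groups did not overlap, and the change was 0.16 ± 0.07 (adjusted p = 0.113). Ccnd3, the most abundant of the 3, had 60.1, 69.4 and 66.2 FPKM in Light, against 51.3, 69.0 and 56.8 FPKM in Dark. Dark 2 lay above Light 1 and Light 3, and the change was 0.15 ± 0.11 (adjusted p = 0.318).

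Ccnd3 made up 66.5% ± 1.64 of the summed D-cyclin FPKM in Light and 66.4% ± 2.77 in Dark (SD, n = 3 each), so the make-up of this family overlapped between groups. Ccnd3 was called without Dark 2 (0.27, adjusted p = 0.0345), and Ccnd2 once the length and GC trend was removed (0.42, adjusted p = 0.0039). With libraries scaled to the same FPKM total, the cyclin changes were -0.01, 0.02 and 0.01, and Ccnd1 then had the opposite sign. Genes on the opposite strand share exonic bases with Ccnd1 (1100 with LTO1) and Ccnd3 (361 with Bysl), and no strand setting is stated, so reads there cannot be told apart. LTO1 had 8.04 to 8.30 FPKM in Light and 6.72 to 8.08 FPKM in Dark, and Bysl 28.6 to 35.0 FPKM in Light and 21.7 to 28.04 FPKM in Dark. Ccnd2 shares 372 and 368 exonic bases with 2 antisense gene models, and no FPKM was found for their identifiers.

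**Figure D3:**
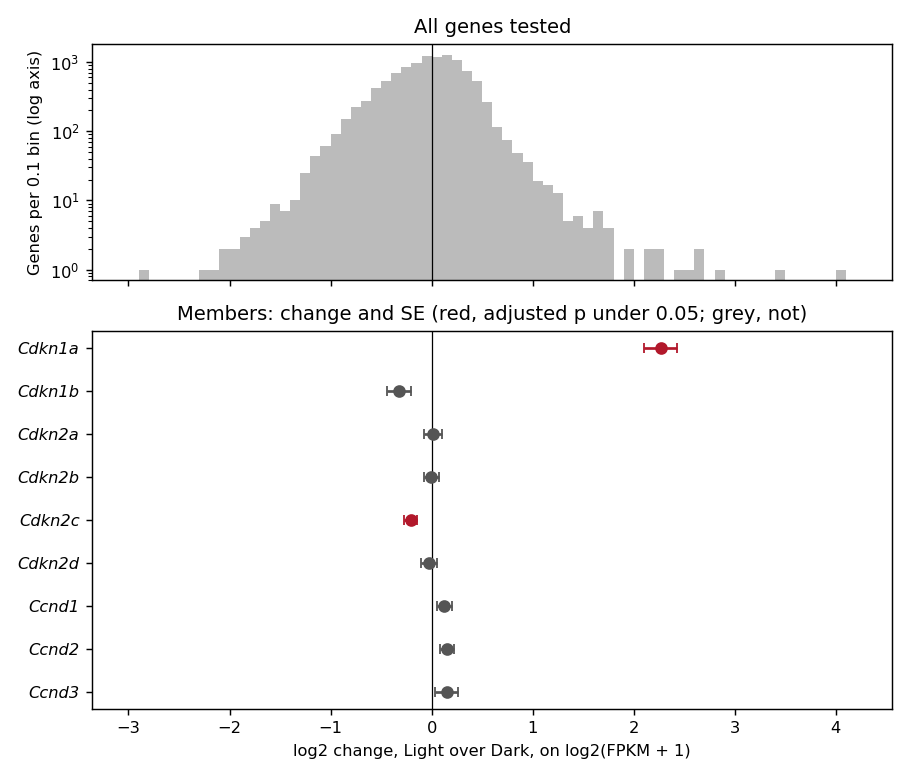
Top, number of tested genes (log axis) in bins of log2 change, Light over Dark; bottom, the change of each of the 9 members with its SE, in red where called. Cdkn1a at 2.27 lies in the far right tail of all genes, and the other 8 lie between -0.33 and 0.16.

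Levels kept nearly the same order in both groups, apart from Cdkn1a. FPKM is per length, so the genes are set in order here, but the annotation behind those lengths is not known. Longest transcripts ran from 895 bases (Cdkn2a) to 6330 bases (Ccnd2). Their GC content ran from 43.1% (Cdkn1b) to 60.2% (Cdkn2a), and the part of either in the order was not tested. In Light the order of mean FPKM was Cdkn2a, Cdkn2c, Ccnd3, Cdkn2d, Cdkn1b, Ccnd1, Cdkn1a, Ccnd2 and Cdkn2b. Neighbours whose 3 values overlapped in Light were Cdkn2c and Ccnd3, Ccnd1 and Cdkn1a, and Cdkn1a and Ccnd2. In Dark the order of the other 8 was the same, with Cdkn1a last and clear of Cdkn2b, and the overlapping neighbours were Cdkn2d and Cdkn1b, and Ccnd2 and Cdkn2b. Cdkn1a stood at percentile 56.6 of tested genes in Light and 10.9 in Dark. Even in Light it gave 3.11% to 4.29% of the summed FPKM of the 6 inhibitors, against 0.484% to 0.653% in Dark, while Cdkn2a gave 66.2% to 68.3% in Light and 64.8% to 68.8% in Dark. The 6 inhibitors together came to 4.42 to 4.56 times the 3 cyclins in Light and 4.70 to 5.20 times in Dark.

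Within groups, libraries with the same number moved alike for several members. Library 2 was the highest of its group, in Light and in Dark, for Cdkn1a, Cdkn2a, Cdkn2d, Ccnd1 and Ccnd3, and library 1 was the lowest in both groups for Cdkn2a, Cdkn2d, Ccnd1 and Ccnd3. For Cdkn1b the order was reversed, with library 1 highest and library 2 lowest in both groups. Over all tested genes, deviations from the group mean correlated at 0.687 between Light 1 and Dark 1, 0.641 between Light 2 and Dark 2, and -0.089 between Light 3 and Dark 3, given as a description across genes. The within-group spread of Ccnd3 in Dark (51.3 to 69.0 FPKM) exceeded the difference between group means (65.2 and 59.0 FPKM).

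The kinases and partners of these proteins gave 1 higher, 2 lower and 7 genes not called of 10 tested, with a median log2 change of -0.11 beside -0.01 for all genes (alternatives gave -0.24 to 0.05). Without 1 library the counts were 0 to 1 higher and 0 to 4 lower, with 0 called without Light 2, Light 3 or Dark 3 and the most without Dark 2. Beside this list and those below, 19.2% of all genes were called higher and 16.4% lower. Without 1 library, 693 to 2990 of all genes were higher and 533 to 2884 lower, again with the most without Dark 2. Cdk4, the main partner of D cyclins by level, had 277, 298 and 296 FPKM in Light, against 223, 262 and 235 FPKM in Dark (0.28 ± 0.08 SE, adjusted p = 0.0376). This call was lost without any library except Dark 2 (adjusted p up to 0.13), and it was also lost at the same FPKM total (0.13, adjusted p = 0.114), with quantile normalization (0.08, adjusted p = 0.197) and with length and GC trends removed (0.08, adjusted p = 0.184). For Cdk6 and Cdk2 the call depended on scaling. Cdk6 averaged 5.09 ± 0.256 FPKM in Light and 6.49 ± 0.817 FPKM in Dark (SD, n = 3 each; -0.29, adjusted p = 0.0576), and Cdk2, the kinase that p21 blocks, 39.4 ± 2.21 FPKM in Light and 42.6 ± 1.26 FPKM in Dark (-0.11, adjusted p = 0.205). At the same FPKM total both were called lower (Cdk6 -0.42, adjusted p = 0.0312; Cdk2 -0.25, adjusted p = 0.0308), whereas with length and GC trends removed Cdk6 was called higher (0.24, adjusted p = 0.0442). Ccna2, the S-phase cyclin that pairs with CDK2, fell by 0.48 (adjusted p = 0.0199), a call lost without Light 2, Light 3 or Dark 3 (up to 0.0764). Mnat1, a subunit of the CDK-activating kinase, fell by 0.29 (adjusted p = 0.0415), was not called without Light 2, Light 3, Dark 1 or Dark 3 (up to 0.139), and stood at 0.15 once length and GC trends were removed (adjusted p = 0.337), with the call also lost under quantile normalization (0.0582) and median centring (0.0531).

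Downstream of the D cyclins, pocket proteins, E2F factors and their partners gave 2 higher, 3 lower and 13 not called of 18, and their median was -0.17 (alternatives gave -0.31 to -0.07). Without 1 library the counts ran from 0 higher and 0 lower (without Light 2) to 2 higher and 9 lower (without Dark 2). Rb1, which encodes the retinoblastoma protein, fell by 0.64 (adjusted p = 0.0373), to 1.43 ± 0.278 FPKM in Light, against 2.84 ± 0.926 FPKM in Dark (SD, n = 3 each). The repressor gene E2f8 fell by 0.32 (adjusted p = 0.0154), the activator gene E2f2 rose by 0.54 (adjusted p = 0.0111), and Lin37, of the cell cycle repressor complex DREAM, rose by 0.44 (adjusted p = 0.0158). The E2f2 call was lost without Light 2 (adjusted p = 0.0502), those of E2f8 and Lin37 without Light 2, Light 3 or Dark 3 (up to 0.0721 and 0.0708), and that of Rb1 also without Dark 1 (up to 0.127). With length and GC trends removed the Lin37 change was 0.16 and not called (adjusted p = 0.0672), and that of Rb1 was -0.27 (adjusted p = 0.0288). With quantile normalization E2f8 was not called (-0.22, adjusted p = 0.0522). E2F target genes of the G1/S step gave 2 higher, 2 lower and 13 not called of 17, with a median of 0.08 (-0.07 to 0.13), and without 1 library 0 to 5 higher and 0 to 2 lower, with 0 called without Light 2, Light 3 or Dark 3 and the most without Dark 2. At the same FPKM total 1 was higher and 6 were lower, beside 1212 higher and 2902 lower over all genes. With quantile normalization 2 were higher and 4 lower, beside 2062 higher and 1727 lower over all genes. Cdt1, a licensing factor gene, rose by 0.39 (adjusted p = 0.018) and Rrm2, of ribonucleotide reductase, by 0.21 (adjusted p = 0.0319), while the helicase gene Mcm4 fell by 0.37 (adjusted p = 0.0179) and the histone mRNA-binding gene Slbp by 0.42 (adjusted p = 0.0318). None of these 4 calls held without Light 2, Light 3 or Dark 3 (up to 0.0739 for Mcm4, 0.0772 for Cdt1, 0.114 for Slbp and 0.125 for Rrm2), those of Slbp and Rrm2 were also lost without Dark 1, and that of Rrm2 also without Light 1. Rrm2 was not called with quantile normalization (0.05, adjusted p = 0.453) or at the same FPKM total (0.07, adjusted p = 0.257), and the Cdt1 change was 0.22 with length and GC trends removed (adjusted p = 0.0105).

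Mitotic genes gave 0 higher, 2 lower and 12 not called of 14, with a median of 0.00, and the length and GC correction made that 0 higher and 8 lower with a median of -0.17. Over all genes the same correction gave 2294 higher and 1863 lower of 10664, with a median of 0.02. Without 1 library the counts were 0 to 3 higher and 1 to 3 lower, the most without Dark 2. Mki67, the proliferation marker gene, fell by 1.47 (adjusted p = 0.00826), to 11.4, 7.52 and 11.03 FPKM in Light, against 42.2, 20.4 and 28.05 FPKM in Dark, and this call held without each library in turn. Top2a, the topoisomerase gene of dividing cells, fell by 0.55 (adjusted p = 0.0392), a call lost without Light 2, Light 3, Dark 1 or Dark 3 (up to 0.135), and by 0.23 with length and GC trends removed (adjusted p = 0.0246).

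**Figure D4:**
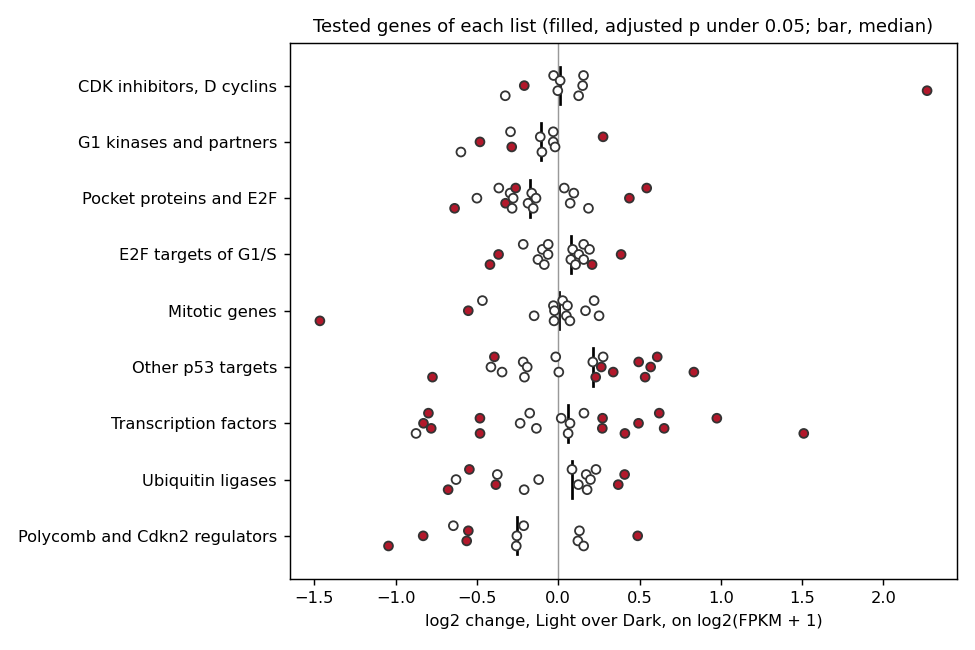
Each point is a tested gene of the named list, placed by its log2 change, Light over Dark; filled points are called and bars are list medians. Cdkn1a at 2.27 lies to the right of every other point, p53 targets other than Cdkn1a hold 8 called higher and 2 lower, and Mki67 is the leftmost mitotic gene at -1.47.

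Targets of p53 other than Cdkn1a gave 8 higher, 2 lower and 9 not called of 19 tested, from a list of 21, and their median was 0.21 (alternatives gave 0.10 to 0.28). As tested, 19.2% of all genes were called higher and 16.4% lower. Without 1 library the list counts were 2 to 8 higher and 1 to 4 lower, with 2 higher without Light 3 or Dark 3 and 3 without Light 2, and 4 were higher at the same FPKM total. Over all genes, calls higher also fell in those fits, from 2128 to 693 without Light 3 and 744 without Dark 3. They numbered 749 without Light 2 and 1212 at the same FPKM total. With length and GC trends removed 11 genes of the list were higher and 2 lower, beside 2294 higher and 1863 lower over all genes. Quantile normalization and median centring each gave 9 higher and 2 lower, beside 2062 and 2256 higher over all genes. Bax, a gene of mitochondrial cell death, had 110, 139 and 117 FPKM in Light, against 57.3, 74.8 and 72.2 FPKM in Dark (0.83 ± 0.13 SE, adjusted p = 0.00487). Plk2, a stress-responsive kinase gene, had 30.7, 33.2 and 31.3 FPKM in Light, against 21.5, 20.9 and 20.8 FPKM in Dark (0.57 ± 0.06, adjusted p = 0.0011). Sesn1, a sestrin gene, moved the other way, with 9.82, 9.34 and 9.85 FPKM in Light, against 17.2, 18.8 and 15.9 FPKM in Dark (-0.77 ± 0.08, adjusted p = 0.000975). These 3 calls held without each library in turn. The death receptor gene Fas fell by 0.39 (adjusted p = 0.0142), lost without Light 2, Light 3 or Dark 3 (up to 0.0646). Mdm2, which encodes the ligase that degrades p53, had 16.7, 12.5 and 14.5 FPKM in Light, against 20.5, 13.5 and 17.3 FPKM in Dark, which overlap (-0.21 ± 0.16, adjusted p = 0.318). Trp53 itself was called higher by 0.27 (adjusted p = 0.039), a call lost without any library except Dark 2 (up to 0.138) and with libraries scaled to the same total (0.13, adjusted p = 0.123) or quantile normalized (0.11, adjusted p = 0.106).

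Transcription factors known to act on these genes gave 8 higher, 5 lower and 8 not called of 21, with a median of 0.06 (-0.07 to 0.12 over the settings tried). At the same FPKM total 6 were higher and 9 lower, and without 1 library 5 to 8 were higher and 2 to 6 lower, with 2 lower without Light 2, Light 3 or Dark 3. Etv4, an ETS factor gene of the growth factor response, rose by 1.51 (adjusted p = 0.00035), to 5.92 ± 0.888 FPKM in Light, against 1.42 ± 0.0795 FPKM in Dark (SD, n = 3 each). The AP-1 gene Fosl1 rose by 0.98 (adjusted p = 0.000564), and Myc, whose protein represses Cdkn1a and raises Ccnd2, by 0.65 (adjusted p = 0.000769). Smad3, of the TGF-beta pathway that raises Cdkn2b and Cdkn1a, fell by 0.83 (adjusted p = 0.000649). Among stress factors fixed by name, Atf4 rose by 0.97 (adjusted p = 0.000169) and Ddit3, the gene of CHOP, by 0.98 (adjusted p = 0.000327). These 6 calls held without each library in turn.

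Genes of the ubiquitin ligases that degrade p27, p21 and the D cyclins gave 2 higher, 3 lower and 10 not called of 15, with a median of 0.08, which turned to -0.04 with length and GC trends removed and to -0.05 at the same FPKM total. Without 1 library the counts ran from 0 higher and 0 lower (without Light 2, Light 3 or Dark 3) to 6 higher and 5 lower (without Dark 2). Skp2, the F-box gene for p27, fell by 0.38 (adjusted p = 0.013), to 18.02 ± 0.975 FPKM in Light, against 23.8 ± 1.92 FPKM in Dark (SD, n = 3 each), and stood at -0.05 once length and GC trends were removed. Dtl, of the ligase for p21 in S phase, fell by 0.68 (adjusted p = 0.0282), and Gsk3b, the kinase gene that marks cyclin D1 for decay, by 0.55 (adjusted p = 0.0158), while Fbxo31, for cyclin D1, rose by 0.41 (adjusted p = 0.0279). The calls of Skp2 and Gsk3b were lost without Light 2, Light 3 or Dark 3 (up to 0.0614 and 0.061), and those of Dtl and Fbxo31 also without Dark 1 (up to 0.0986 and 0.104). With length and GC trends removed Gsk3b was not called (-0.15, adjusted p = 0.081) and the Dtl change was -0.31 (adjusted p = 0.0121), and at the same FPKM total Fbxo31 was not called (0.27, adjusted p = 0.0594). Polycomb genes and other regulators of the Cdkn2 loci gave 1 higher, 4 lower and 7 not called of 12, with a median of -0.26 (-0.39 to -0.15), and without 1 library 1 higher and 2 to 7 lower, the most without Dark 2 and 2 without Light 2, Light 3, Dark 1 or Dark 3. Id1, which counters ETS activation of p16, fell by 0.83 (adjusted p = 0.00047), Ets1 fell by 0.56 (adjusted p = 0.00486) and Ets2 rose by 0.49 (adjusted p = 0.00598), all kept without each library in turn. Rnf2, of Polycomb complex PRC1, fell by 0.55 (adjusted p = 0.0393), lost without Light 2, Light 3, Dark 1 or Dark 3 (up to 0.133), and by 0.22 with length and GC trends removed (adjusted p = 0.0214). Bmi1, the classic repressor gene of the Cdkn2a locus, had a change of -0.65 (adjusted p = 0.0646) and Ezh2 of -0.26 (adjusted p = 0.17), and neither was called, although Bmi1 was called with length and GC trends removed (-0.31, adjusted p = 0.043). Of the genes named above whose calls were lost without 1 library, E2f2 alone kept its call without Dark 1 and Light 2, and the others had adjusted p-values of 0.0573 to 0.245. With no filter on low values the calls of Ccna2, Cdk4, Mnat1, Rb1, Slbp, Top2a, Fbxo31, Dtl, Rnf2 and Trp53 were lost (adjusted p = 0.0509 to 0.0903).

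Genes whose profile over the 6 libraries was nearest to a member were sought among 10334 named genes, by the root mean square difference of log2(FPKM + 1) values centred on each gene's own mean. Nearest to Cdkn1a were Dusp4, a MAP kinase phosphatase gene, at 0.0599, and the stress hormone gene Gdf15, at 0.112. Dusp4 had 12.5, 18.7 and 14.4 FPKM in Light, against 2.25, 2.97 and 2.35 FPKM in Dark (2.19 ± 0.15 SE, adjusted p = 0.000271). Gdf15 had 12.9, 15.7 and 13.8 FPKM in Light, against 1.99, 2.67 and 2.25 FPKM in Dark (2.20 ± 0.11, adjusted p = 0.000109). Both were highest in library 2 of each group, as were Cdkn1a, Cdkn2a, Cdkn2d, Ccnd1 and Ccnd3, and both were picked for their near profiles. For 7 of the members with smaller changes the nearest pairs were Sipa1 and Smo for Cdkn2a, Fam162a and Pomt2 for Cdkn2b, Mrpl18 and Shroom4 for Cdkn2c, Gtf3c1 and Ampd2 for Cdkn2d, Trpv4 and Dync1h1 for Ccnd1, Slc35f2 and Bccip for Ccnd2, and Zdhhc7 and Cog1 for Ccnd3. Their differences were 0.00963 to 0.0287, and profiles that hardly vary are close to many genes.

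**Figure D5:**
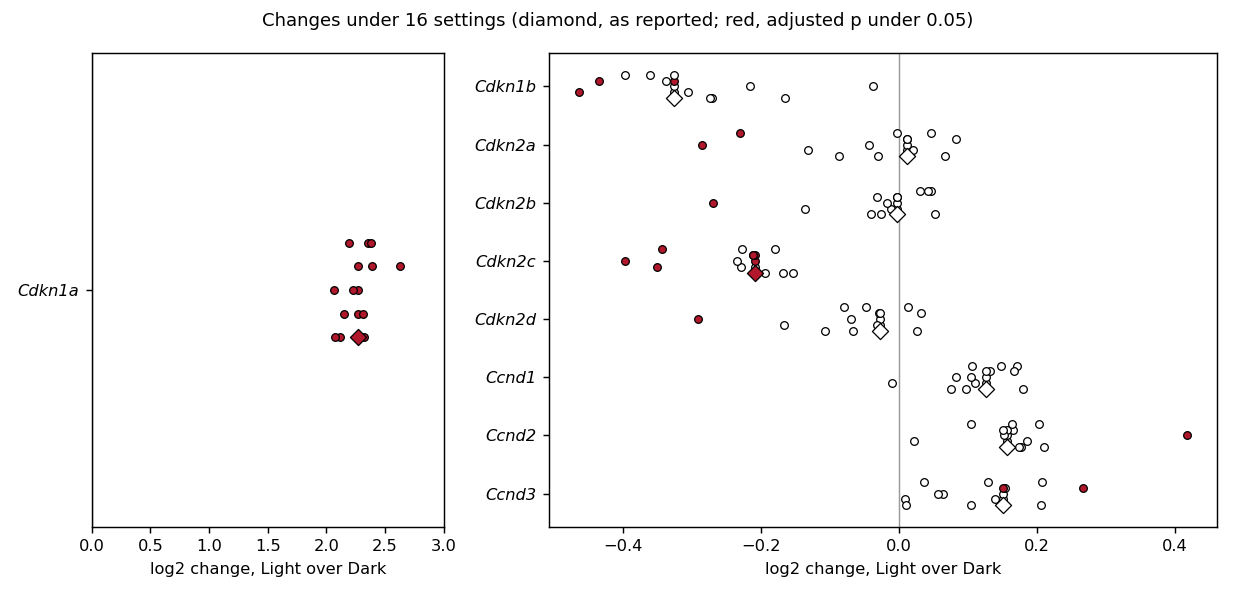
Horizontal axes give the log2 change, Light over Dark, of Cdkn1a (left) and of the other 8 members (right); diamonds are the values reported, circles the 15 alternatives, and red marks an adjusted p under 0.05. Cdkn1a is red throughout, at 2.06 to 2.63, while Cdkn2a, Cdkn2b, Cdkn2d and Ccnd1 have points on both sides of 0.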

How the data were processed

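Libraries were made from TRIzol-extracted total RNA with a dual-mode mRNA kit, per the labels' protocols. Per the submitters' processing notes, HISAT2 and the mm10 build were used. For the FPKM program, annotation and strand setting nothing is given in the sources. Per the file headers, the values that the authors deposited are FPKM, and the table of the series equalled all 6 per-sample tables. Whole-read steps were sought in 2030 low genes, and the commonest ratio of a library pair was shared by at most 0.345%, so reads could not be recovered.

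Groups came from the sample titles. Genes averaging 1 FPKM or more were tested on log2(FPKM + 1) with limma 3.58.1 in R 4.3.3 (trend and robust, 2-sided), group being the only term. The procedure was tested on simulated data whose noise was independent between genes and libraries. That test does not cover deviations shared by libraries of the same number. Loci, lengths and GC content came from GENCODE M21 on mm10, using each gene's longest transcript, found for 22022 of 22036 Ensembl identifiers. Promoter windows are from RefSeq on GRCm38.p6, the same build.

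The 9 members, the lists and the motifs were chosen with earlier results of these data known, and the p53 core after the Cdkn1a sequence was seen. Named are the members, up to 4 called genes of each list by p, 13 fixed genes, and the 2 nearest profiles per member, of which those of Cdkn1b are not reported here. Alternatives changed the filter, pseudocount, scaling, length and GC trend (loess, span 0.5), replicate block and libraries kept.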

Additional observations from a re-analysis of the deposited data

How the results depend on the processing

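The 3938 calls over all genes became 2606 with no filter, 6690 with the replicate number as a block, 1427 without Dark 1 and Light 2, and 1228 to 5874 without 1 library. The 2 calls among the members became 1 with no filter, 1 with median centring, 6 with length and GC trends removed, 4 with the replicate block, 1 without Dark 1 and Light 2, and 1 to 4 without 1 library. Replicate numbers are not stated to pair libraries, and the third pair did not deviate together. The block added Cdkn1b (adjusted p = 0.000702) and Ccnd3 (0.0427).

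Signs turned for Cdkn2a with quantile normalization (-0.23), the same FPKM total (-0.13), length and GC trends removed (-0.29) and without Dark 1 and Light 2 (-0.087), and its changes without 1 library were -0.044 to 0.082. Cdkn2b turned to 0.046 with quantile normalization and 0.052 with median centring (-0.032 to 0.042 without 1 library), Cdkn2d to 0.026 with median centring (-0.069 to 0.032), and Ccnd1 to -0.010 at the same FPKM total. Among other genes, Mnat1 (0.15) and Cdk6 (0.24) turned with length and GC trends removed, and Mdm2 (0.023) without Dark 1 and Light 2. The cause was not tested. A fit with fewer libraries has fewer degrees of freedom, so a call lost there need not be a smaller change, and unknown depth limits what can be said of low genes.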
